A study of Mus musculus with 4 samples.

Results

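The transcriptome of uninduced, confluent preadipocytes was read from the array labelled control at day 0, 1 of 4 arrays in the series. Genes were chosen and ordered by brightness: each non-control spot that Agilent's software marked as well above background and did not mark as an outlier was kept, each probe was named through its RefSeq accession, and the brightest probe stood for its gene. In this way 20958 genes were measured and 15956 of them (76.1%) were well above background, and these 15956 make up the ranking, with rank 1 the brightest. The study compared control 3T3-L1 preadipocytes with a lamp2a knockdown, before induction (day 0) and on day 2 after it, with 1 array per group. The cells described here were grown to confluence in DMEM with 10% heat-inactivated serum and antibiotics and were collected before the hormone mixture was added, so no insulin, dexamethasone or isobutylmethylxanthine had been given. They come from 1 culture of an established mouse line, and how the control cells were handled, for example whether they carried a control vector, is not stated in the labels. No value of the other arrays enters, there is no replicate, and no test was run.

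3T3-L1 is a line of mouse embryo fibroblasts selected for its ability to become fat cells. At confluence the cells stop dividing by contact inhibition, and glucocorticoid, cyclic AMP and insulin signals then start a relay in which C/EBPβ and C/EBPδ switch on PPARγ and C/EBPα, the regulators that install the fat cell programme. Before that, preadipocytes resemble fibroblasts: they lay down collagen-rich matrix, hold tension through actin and myosin fibres anchored at focal adhesions, and keep adipogenesis in check through membrane proteins such as DLK1 and through restraining transcription factors.

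The processed signal is an intensity after subtraction of background. Signals of ranked genes ran from 28.1 to 503000, with a median of 2000, and the median over all genes measured was 526.5. Genes not well above background reached at most 33.0. Olfactory receptor genes, a family used mainly in the nose, served to gauge what an irrelevant probe reads: 324 of 1063 (30.5%) were well above background, with a median of 11.3. Their 95th percentile of 198.9, here called the olfactory limit, was exceeded by 12180 of all genes (58.1%), so a gene below it is described only as near the noise of the array. The brightest 10% began at a signal of 21800, with 21700 the highest value left outside, and held 2108 genes (10.1% with ties). The brightest 1% began at 152000, with 150000 just outside, and held 211 genes (1.01%). These 211 genes carried 27.6% of the summed signal of all ranked genes, and the brightest 10% carried 74.5%.

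Among probes printed 10 times, the median coefficient of variation was 2.60% above a signal of 10000 and 13.5% up to the olfactory limit. The software's own error estimate was larger, with a median of 10.0% of the signal for spots above 1000, and the rank spans given below rest on the repeat spots alone. The probe itself mattered far more: of 4058 ranked genes with more than 1 probe well above background, 53.7% had probes that read at least 4-fold apart, and in 199 genes they read at least 100-fold apart. Brightness therefore orders probe signals, not transcript numbers, and other probes are given below for many genes whose probes read far apart. Values were deposited with 3 significant digits, so 15103 of the ranked genes share their signal with another gene, and ties share a rank.

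**Figure D1:**
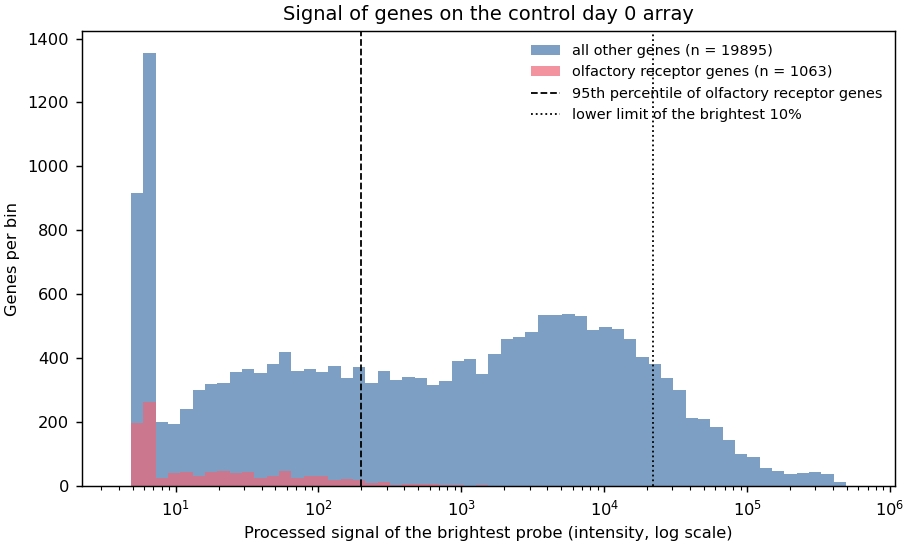
Number of genes in each bin of processed signal (x axis, intensity on a log scale) on the control day 0 array, with olfactory receptor genes (n = 1063) in red and all other genes (n = 19895) in blue. The dashed line at 198.9 is the olfactory limit (95th percentile of that family) and the dotted line at 21800 is the lower limit of the brightest 10%; a peak of genes sits at the floor of the scale and a broad rise lies between the lines.

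The label of the cells was checked against markers, and the array read as preadipocytes or fibroblasts. All 14 preadipocyte and fibroblast markers were well above background and above the olfactory limit, 11 were in the brightest 10% and 7 in the brightest 1%, against 76.1%, 58.1%, 10.1% and 1.01% of all genes measured. Thy1, a surface glycoprotein of fibroblasts, read 58500, and Pdgfra, the PDGF receptor that marks adipose progenitors, read 23390 ± 986 (SD over 10 spots). The dimmest of the 14 was Cd34, a sialomucin used to sort progenitors, at 694, and its other probe read 22.1 and was not well above background. In bulk RNA, fewer cells of a type and less RNA per cell cannot be told apart.

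Markers of mature fat cells were dim or undetected. Of 8, 6 were well above background but only Fabp4, a fatty acid carrier, passed the olfactory limit, at 907. Adipoq, which encodes adiponectin, read 14.4 and Cfd, which encodes adipsin, read 19.1, and neither was well above background. Plin1, the lipid droplet coat protein of adipocytes, read 29.6 and Slc2a4, the insulin-regulated glucose transporter, read 36.1.

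Lists of other cell types differed. Those of leukocytes and smooth muscle had 55.6% and 62.5% of genes past the olfactory limit, against 58.1% of all genes. In the remaining lists at most 37.5% passed it. Of the leukocyte list, 5 of 9 genes passed it: Itgam at 22500, Csf1r at 3290, Cd14 at 1630, Cd3e at 1600 and Lyz2 at 478. However, 2 further Itgam probes read 192 and 172, Ptprc (CD45) read 43.7 and Tyrobp was not well above background. Of 8 endothelial markers 2 passed it, Kdr at 4170 and Pecam1 at 485 ± 310 (SD over 2 spots), while Cdh5, Tek, Tie1 and Emcn were not well above background. Of 8 epithelial markers 2 passed it, Krt5 at 217 and Esrp1 at 479, and Epcam and Cdh1 were not well above background. The skeletal muscle list had 3 of 8 past the limit: Acta1 at 5030, Tnnt3 at 315 and Des at 199.8. The neuron and glia list had 3 of 8, bone and cartilage 1 of 7, erythroid 0 of 5 and hepatocyte 1 of 6. Among the genes that passed, Snap25, a synaptic fusion protein, read 17200 and Sox9, a cartilage factor also used in preadipocytes, read 7810 ± 251 (SD over 10 spots). The smooth muscle list had 5 of 8 past the limit, led by Acta2, smooth muscle actin, at 182111 ± 3060 (SD over 9 spots), and Tagln at 17500. Myh11, the myosin that defines mature smooth muscle, read 28.9 and was not well above background, and Cnn1 read 81.3.

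The top of the ranking was filled by the protein synthesis machinery. Of the 30 brightest genes, 19 encode ribosomal proteins, and of the 211 genes in the brightest 1%, 75 do. Rpl41 read 447000, Rpl35 442000 and Rps24 415000, ranks 3 to 5. Of 86 ribosomal protein genes measured, 81 were in the brightest 10%, and the 4 not well above background were Rpl10l, Rpl39l, Rpl3l and Rps4l, whose symbols mark them as like copies of other ribosomal genes. Ribosomal, actin, tubulin and MHC genes have near-identical copies or pseudogenes, so a probe may also read a relative. Of 15 genes in the translation factor list, 14 were in the brightest 10%. Tpt1, a growth-linked protein that also binds microtubules, stood at rank 2 with 474000, and its remaining probes read within 4-fold of it. Tpt1 was counted both in the translation factor list and in the cytoskeletal class. Eef1a1 and Eef2, which drive elongation, read 231000 and 225000, whereas Eef1a2, the form of Eef1a1 used in muscle and brain, read 10.6 and was not well above background.

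The brightest signal of all was that of Mdm2, which encodes the ubiquitin ligase of p53, at 503000 from its single probe. Its rank was 4 without detrending and 5 with normexp background correction, and Rpl41 was then at rank 1. Mesenchymal genes stood among the ribosomal ones. Col1a2, a chain of type I collagen, and Dlk1, the membrane protein that holds preadipocytes undifferentiated, both read 369000 at rank 23, where 1 SD of spot error spans ranks 22 to 30. The other probe of Dlk1 read 130000, and its rank was 43 without detrending, 38 with normexp background correction and 64 with the median of its probes. S100a6, a calcium-binding protein, read 361000 at rank 30. Fth1, the heavy chain of the iron store ferritin, read 380000. Glrx2, a mitochondrial glutaredoxin, read 399000 at rank 13, but its other probes read 14400 and 441, and with the median of its probes in place of the brightest it falls to rank 2537. Rpl14 likewise had another probe at 6570, and Rps27a, Rps24 and Rpl23 also had probes at least 4-fold apart.

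**Figure D2:**
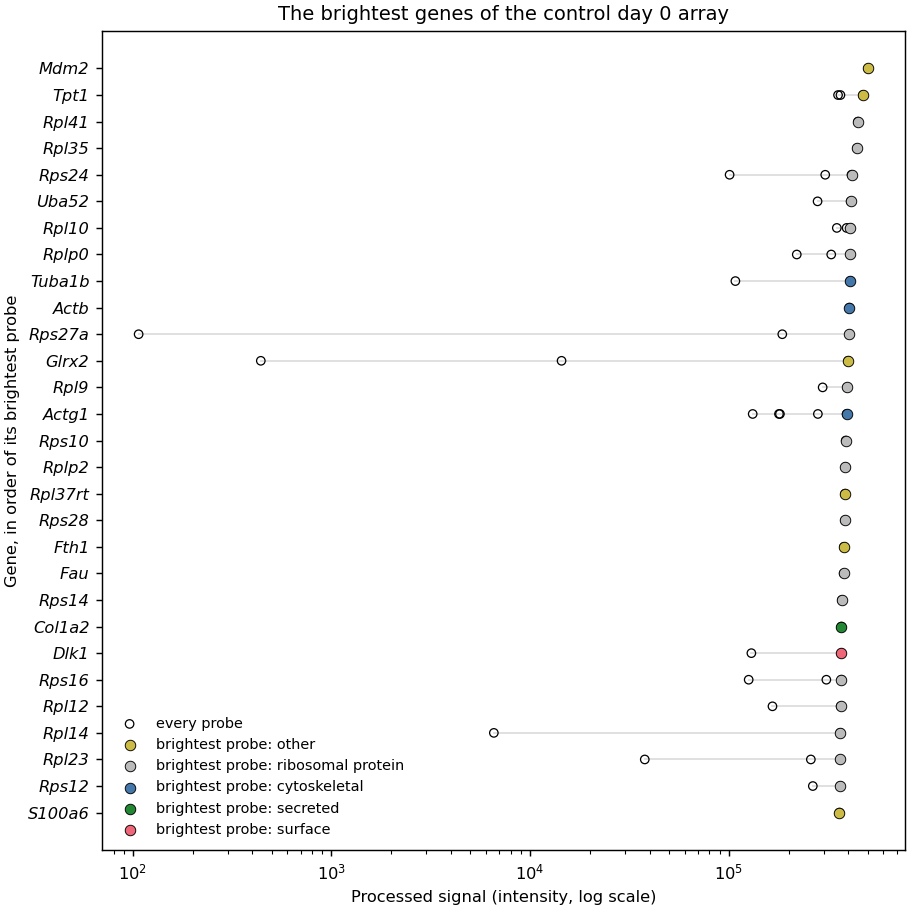
Processed signal (x axis, intensity on a log scale) of every probe of 29 of the 30 brightest genes, in order of the brightest probe; filled points are the brightest probe, coloured by gene class, and open points are the gene's other probes. Filled points run from 361000 (S100a6) to 503000 (Mdm2), while the dimmest open points of Glrx2 and Rpl14 lie at 441 and 6570, and that of Rps27a lies lower still.

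Outside the gene lists, 89 of the 211 brightest genes remained, and the following were picked from them after their values were seen. Anxa2 (319000) and Anxa1 (187000) bind membranes in a calcium-dependent way, S100a10 (160000) is the partner of Anxa2, and S100a4 (276000) is a fibroblast marker. Lgals1, a galactose-binding lectin, read 275000 and Fstl1, a secreted glycoprotein of mesenchymal cells, read 260000. Medag, named for its part in adipogenesis, read 227000 and 59500 on its probes. Mt1, a metal-binding metallothionein, read 280000. Atf4 and Atf5, leucine-zipper factors of the stress response, read 318000 and 245000, with another Atf4 probe at 14800. Slc10a1, the bile acid transporter of liver cells, read 306000 on one probe and was not well above background on the other, and Kctd14 read 342000 on its brightest probe and 125 on its dimmest.

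Cytoskeletal genes had the highest median signal of the 4 classes examined. Of 293 measured, 242 were well above background, 194 passed the olfactory limit, 67 (22.9%, against 10.1% of all genes) were in the brightest 10% and 14 in the brightest 1%, with a median signal of 1050. These 14 include Tpt1. Actin, the actin regulators and the list of tropomyosins, calponins and related proteins stood high, while keratins and striated muscle myosins stood low. These counts describe complete lists, most of which include members that serve other tissues.

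Both nonmuscle actins were among the 15 brightest genes. Actb, β-actin, read 405000, and the 5 probes of Actg1, γ-actin, read 392000, 281000, 181000, 179000 and 132000. With the median of its probes Actg1 falls from rank 15 to rank 122. Acta2 stood at rank 167, and Actg2 (enteric actin) read 15300 and Acta1 (skeletal actin) 5030. Actc1, cardiac actin, read 6.56 and was not well above background. The actin genes share long stretches of coding sequence, so which copy each probe reads was not tested.

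Myosin followed the same split between nonmuscle and striated forms. Among heavy chains, Myh9, the nonmuscle myosin IIA of stress fibres, read 112000 and Myh10 (IIB) read 5810. Of the 14 conventional heavy chains, only these and Myh14, at 440 with another probe at 59.6, passed the olfactory limit, and Myh2, Myh3, Myh4, Myh11, Myh13 and Myh15 were not well above background. Of 11 light chains, 4 were in the brightest 10%: Myl6 at 312000, Myl12a at 143000, Myl9 at 114000 and Myl12b at 35500. These are the light chains that pair with nonmuscle or smooth muscle myosin, whereas Myl1, Myl2 and Myl7 of striated muscle read 20.6, 14.1 and 18.6 and were not well above background. Among 23 unconventional myosins only Myo9b reached the brightest 10%, at 38400, with another probe at 3070.

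Tropomyosins, calponins and related proteins had 7 of 14 members in the brightest 10%. Tpm3 read 194000 on its brightest probe but 1120 and 36.8 on the others, and its transcripts are known to be spliced into several forms. Tpm4 read 131000, Tagln2 (transgelin 2) 121000 with another probe at 17300, and Cnn3 (acidic calponin) 75300. Of 32 regulators of actin monomers and filaments, 17 were in the brightest 10% and only Cap2 was not well above background. The monomer-binding thymosins Tmsb4x and Tmsb10 read 174000 and 158000, the severing protein gelsolin (Gsn) read 169000, and Arpc2, a subunit of the branching Arp2/3 complex, read 112000. Regulators of actin therefore formed a bright group with a median of 23550.

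Crosslinkers and focal adhesion proteins, which tie actin to integrins, had 11 of 29 members in the brightest 10% and 27 above the olfactory limit. Flna, which crosslinks actin, read 154000, Csrp1 104000, Zyx (zyxin) 98700 and Pdlim2 83500. Actn2, the α-actinin of striated muscle, was not well above background. Of the spectrin and ERM list, Sptbn1 (β-spectrin) read 86800 with further probes at 4270 and 2740, and Msn, which links actin to the membrane, read 62100, while Sptb of red cells was not well above background.

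Many cytoskeletal genes are known targets of SRF, the actin-responsive factor that binds the CArG box. RefSeq promoter windows (GRCm38.p6) were matched by symbol for 16600 of the genes measured, 20240 windows in all, and the 250 bases before each start were searched. The CArG box, whose pattern reads the same on both strands, was present in 18 of 289 cytoskeletal windows (6.23%), against 1.32% of all windows, 1.19% of secreted, 0.40% of surface and 2.75% of transcription factor windows. Within the cytoskeletal class it was in 6 of 78 windows (7.69%) of genes in the brightest 10% and in 12 of 211 windows (5.69%) of the rest. The motif and the class were picked after the shares of 3 motifs in 4 searches had been seen over 75 lists, and other lists also had high shares, among them AP-1 and Egr factors (20.0%), adipogenic activators (16.1%) and laminins (10.0%). The 5 cytoskeletal genes of the brightest 10% that hold the box are Actg1, Myl6, Myl9, Cnn2 (68600) and Fhl2 (51400), of which Cnn2, a calponin, and Fhl2, a LIM-domain adaptor, were named for holding it. Their boxes are printed 5′ to 3′ on the strand of the gene, with the box in capitals, to show how far the letters between the invariant ends vary, and Acta1 and Actc1 are shown beside them as dimmer actins that hold the same box.

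Actg1, chr11:120348551-120348610, minus strand: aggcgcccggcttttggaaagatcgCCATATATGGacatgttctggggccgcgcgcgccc
Myl6, chr10:128493025-128493084, minus strand: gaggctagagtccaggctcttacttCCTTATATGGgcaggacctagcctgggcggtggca
Myl9, chr2:156775278-156775337, plus strand: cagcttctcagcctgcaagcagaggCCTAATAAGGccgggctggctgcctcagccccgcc
Cnn2, chr10:79988519-79988578, plus strand: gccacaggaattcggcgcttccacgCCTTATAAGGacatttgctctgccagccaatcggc
Fhl2, chr1:43163962-43164017, minus strand: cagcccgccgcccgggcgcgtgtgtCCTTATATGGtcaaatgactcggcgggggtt
Fhl2, another start, chr1:43196823-43196882, minus strand: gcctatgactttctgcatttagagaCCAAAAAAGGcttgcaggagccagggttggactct
Acta1, chr8:123894814-123894873, minus strand: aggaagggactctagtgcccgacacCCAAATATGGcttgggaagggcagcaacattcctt
Actc1, chr2:114052888-114052947, minus strand: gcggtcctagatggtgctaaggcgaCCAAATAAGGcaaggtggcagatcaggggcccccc

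The first base of these boxes lies between 31 bases (Fhl2) and 161 bases (Myl9) before the start. Both Actg1, at 392000, and Actc1, at 6.56 and not well above background, hold the box. A match is a description of letters and does not show that SRF binds there.

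Tubulins and intermediate filaments were led by a few members each. Of 20 tubulins, 8 were in the brightest 10%, led by the α-tubulins Tuba1b at 409000, Tuba1a at 219000 and Tuba1c at 187000 and by the β-tubulin Tubb5 at 103000. Tubb1 of platelets and Tubal3 were not well above background. Kinesins, the motors that walk along microtubules, had 28 of 36 members above the olfactory limit and none in the brightest 10%, and the brightest, the mitotic Kif20a, read 13500. Septins had 5 of 13 in the brightest 10%, but Septin3 read 78200 on one probe and was not well above background on the other, and Septin2 read 77500 and 878.

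Vim, the intermediate filament of mesenchymal cells, read 295000 at rank 68, and Lmna, the nuclear lamin A/C, read 81600. The neurofilaments Nefh, Nefl and Nefm were not well above background, and Gfap of astrocytes read 113. Of 53 keratins, 22 were not well above background, 14 passed the olfactory limit and none reached the brightest 10%. The brightest was Krt222, at 11300 on one probe and 6.29 on the other, and Krt10 read 2450 with another probe at 117. The letters TATAAA, on either strand within 250 bases of the start, were in 45.9% of keratin windows, against 11.1% of all windows, 8.89% of ranked genes and 18.8% of genes not well above background. Other lists had shares of the same order, among them myosin heavy chains (42.9%), matrix metalloproteinases (40.0%), olfactory receptors (39.0%) and interleukins (37.9%). Vim shows that the letters also occur before a bright filament gene, here in capitals and beginning 32 bases before the start.

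Vim, chr2:13574254-13574309, plus strand: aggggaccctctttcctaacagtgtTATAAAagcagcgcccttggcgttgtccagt

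**Figure D3:**
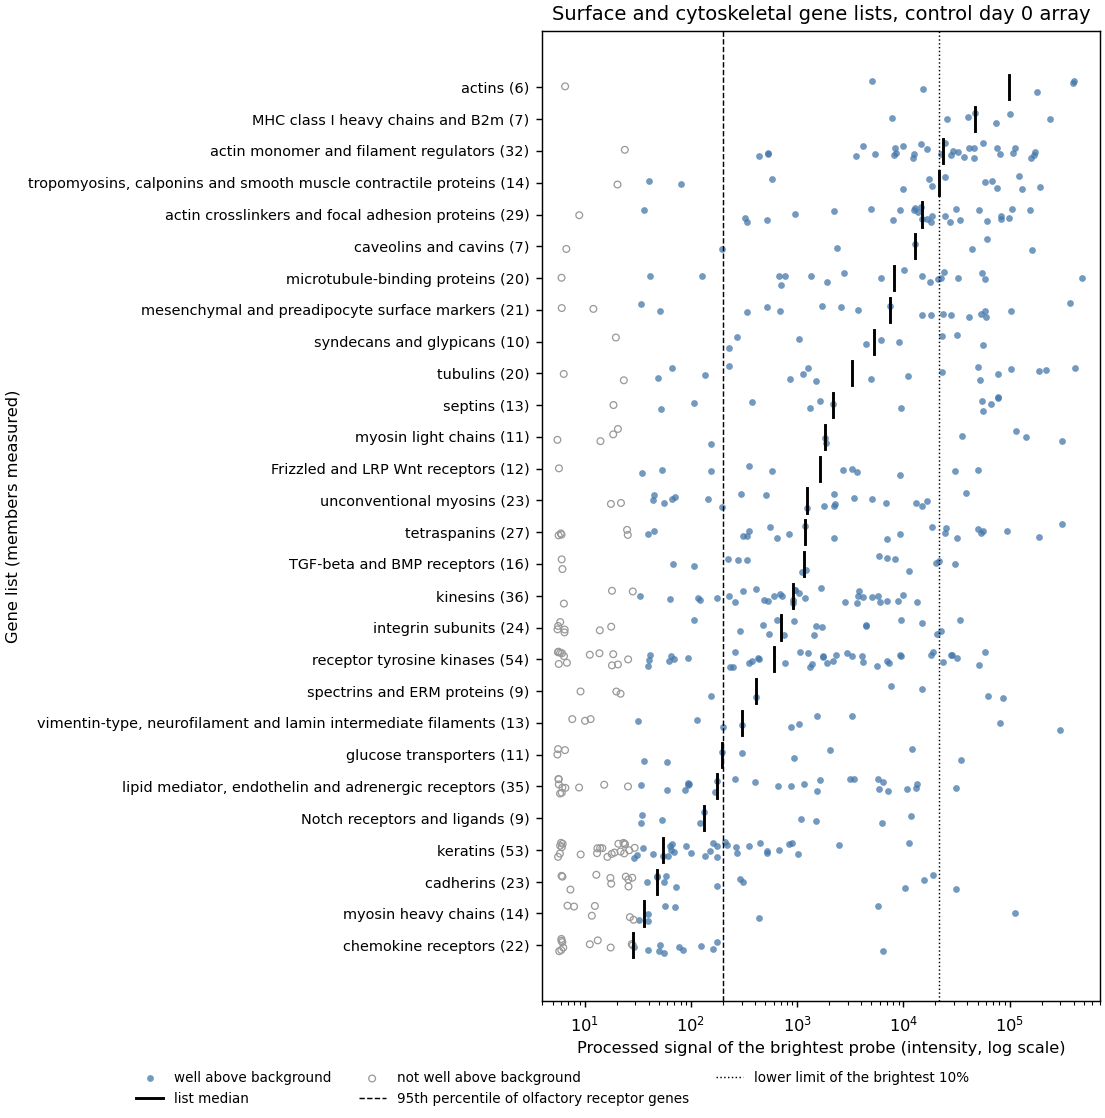
Processed signal of the brightest probe (x axis, intensity on a log scale) of each member of the surface and cytoskeletal lists, ordered by list median (black bar), with the number measured in brackets; vertical scatter within a row has no meaning. Blue points are well above background and open points are not, the dashed line is the olfactory limit of 198.9 and the dotted line at 21800 begins the brightest 10%; actins and MHC class I genes lie highest, and keratins, cadherins, myosin heavy chains and chemokine receptors lowest.

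Of 396 secreted genes measured, 306 were well above background (77.3%, against 76.1% of all genes) and 225 passed the olfactory limit (56.8%, against 58.1%). Both shares were near those of all genes. In the brightest 10% were 67 (16.9%, against 10.1%) and in the brightest 1% were 13 (3.28%, against 1.01%). The class median was 403.5, against 526.5 for all genes. Among the lists with the highest medians were Timp inhibitors, small proteoglycans and matrix glycoproteins, and among the lowest were interleukins, FGF ligands and secreted Wnt modulators.

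Collagens showed a few bright chains among many dim ones. Of 43 chains measured, 10 were in the brightest 10% and 8 were not well above background, and the median was 446. Beside Col1a2, the fibrillar chains Col3a1 and Col1a1 read 233000 and 137000, and Col6a1 of the microfibrillar type VI read 196000. Col10a1 of growth-plate cartilage and Col4a3 of kidney basement membrane were not well above background. All 16 genes for collagen processing passed the olfactory limit, and 6 were in the brightest 10%. Pcolce, which enhances procollagen cleavage, read 290000, Serpinh1, the collagen chaperone HSP47, 125000, P4hb, a subunit of prolyl hydroxylase, 72900 and Loxl1, a crosslinking oxidase, 63600.

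Matrix glycoproteins were bright as a group, with 35 of 35 well above background, 14 in the brightest 10% and a median of 16800. Sparc, a collagen-binding protein, read 348000 at rank 36, with its other probe at 50000. Fn1 (fibronectin) read 188000, Fbln2 (fibulin 2) 155000 and Postn (periostin) 152000. Of 8 small proteoglycans and versican, 5 were in the brightest 10%: Dcn (decorin) at 313000, Ogn (osteoglycin) at 132000, Bgn (biglycan) at 66200, Aspn (asporin) at 27100 and Vcan, which fell outside the rule for named genes, at 24100. Basement membrane genes had 5 of 15 there, with Lamb1 (laminin β1) at 88200 and Nid1 (nidogen) at 56500, whose other probes read 1510 and 497. Agrn (agrin) read 72600 on one probe and 162 on the other, and Lama1 and Lamc3 were not well above background.

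Matrix metalloproteinases had a list median of 83.0 and Timp inhibitors, which block them, of 40600. Of 22 matrix metalloproteinases, only Mmp2, the gelatinase of fibroblasts, reached the brightest 10%, at 115000. Mmp3 and the membrane-bound Mmp14 both read 18100, and Mmp8, Mmp12 and 5 further members were not well above background. Of 4 Timp inhibitors, 3 were in the brightest 10%: Timp2 at 230000 with another probe at 49300, Timp1 at 55400 and Timp3 at 25800. Timp4 read 134. Adamts1 and Adamts2, the latter a procollagen peptidase, read 91100 and 90400, with another Adamts2 probe at 2760. Cst3 (cystatin C) and Serpinf1 (PEDF), both protease inhibitor family members, read 211000 and 209000.

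Growth factor ligands were mostly dim, with some exceptions. None of 33 TGF-β family ligands was in the brightest 10%, and 12 were not well above background, Bmp2 and Mstn among them. Tgfb3 read 17410 ± 569 (SD over 10 spots), Inhba 7940, Tgfb2 4340 and Tgfb1 789.5 ± 30.9 (SD over 10 spots). Of 22 FGF ligands, Fgf7, a factor that fibroblasts make for epithelia, read 21800, and Fgf10, which acts on adipose precursors, read 5574 ± 264 (SD over 10 spots). Fgf23 read 18400 on one probe and 41.5 on the other. Of 19 Wnt ligands none was in the brightest 10%, and Wnt5a, a non-canonical ligand, read 8530, Wnt6 8170 and Wnt4 3070. Of 14 secreted Wnt modulators 8 were not well above background, including Dkk1, Dkk2 and Sfrp1, and Sfrp2 read 16800.

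The mixed list of other growth factors had 8 of 28 in the brightest 10%. Ptn (pleiotrophin) read 217000, Grn (progranulin) 54800, Vegfd 40400 ± 628 (SD over 9 spots) and Csf1, the macrophage growth factor, 36380 ± 1072 (SD over 10 spots). Of the insulin-like growth factor list none was in the brightest 10%: Igf1 read 15300 on its brightest probe and 673.5 on its dimmest, Igfbp6 14700, Igfbp4 7390, Igfbp7 3860 and Igf2 263. The list of 9 had a median of 305, against 526.5 for all genes, and Igfbp1 was not well above background.

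Chemokines and complement had bright members beside members not well above background. Of 34 chemokines, 4 were in the brightest 10% (11.8%, against 10.1% of all genes) and 13 were not well above background. Ccl2, which draws monocytes, read 95380 ± 2797 (SD over 10 spots), Cxcl12, the stromal chemokine, 77800, Ccl7 53100 and Cxcl5 29400. Ccl3 and Ccl4, which are made mainly by leukocytes, were not well above background, nor was Cxcl2. None of 32 interleukins was in the brightest 10%, 7 passed the olfactory limit, and the brightest was Il18 at 3670. Of 17 complement genes, C3 read 118300 ± 2627 (SD over 10 spots), C1ra 81500 and C1s1 39600, and C1qa and C1qc, made by macrophages, were not well above background. Of 11 adipokines none was in the brightest 10%. Rarres2 (chemerin) read 9100 and Nampt 8680, and Lep, which encodes leptin, read 106.

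**Figure D4:**
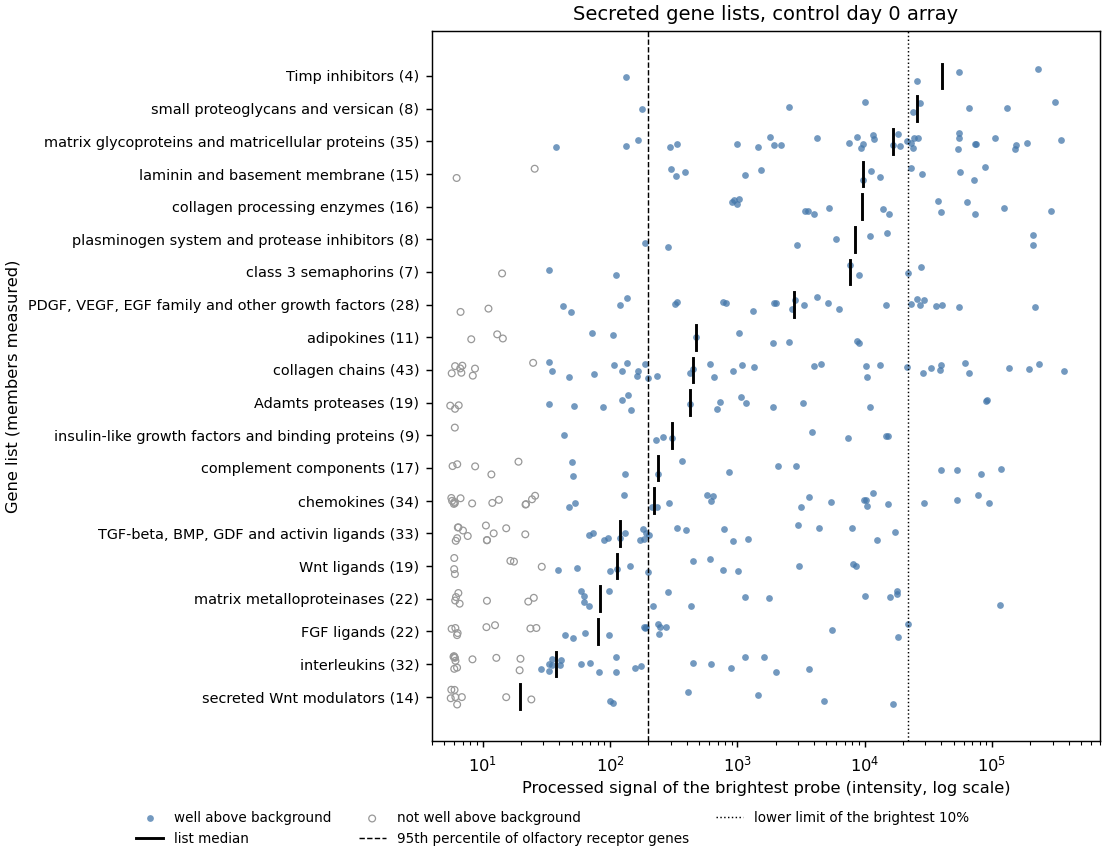
Processed signal of the brightest probe (x axis, intensity on a log scale) of each member of the secreted lists, ordered by list median (black bar), with the number measured in brackets; vertical scatter within a row has no meaning. Blue points are well above background and open points are not, the dashed line is the olfactory limit of 198.9 and the dotted line at 21800 begins the brightest 10%; the first 5 lists, with medians of 9610 to 40600, concern matrix or its inhibitors and processing, and secreted Wnt modulators, interleukins, FGF ligands and matrix metalloproteinases lie at the bottom.

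Of 273 surface genes outside the olfactory receptors, 207 were well above background (75.8%, against 76.1% of all genes) and 156 passed the olfactory limit (57.1%, against 58.1%). Both shares were near those of all genes. In the brightest 10% were 41 (15.0%, against 10.1%) and in the brightest 1% were 5 (1.83%, against 1.01%). The class median was 405, against 526.5 for all genes. The brightest 5 were Dlk1, the tetraspanins Cd63 and Cd81, the MHC light chain B2m, and Cavin1.

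Mesenchymal and preadipocyte markers had 17 of 21 members above the olfactory limit and 8 in the brightest 10%. After Dlk1 came F3 (tissue factor) at 103000 with another probe at 19200, Vcam1 at 59400 with another at 3660, and Thy1 at 58500. Cd9, a tetraspanin of adipose progenitors, read 53800, and Ly6a (Sca-1), which has close relatives in the Ly6 family, read 27900. Pdgfrb read 18200, and Itgb1 read 15000 with another probe at 1940. Cd44, the hyaluronan receptor, read 7530, 3430 and 54.4 on its probes and was not well above background on a further one, and Eng (endoglin) read 341. Dpp4 and Icam1, at 6.10 and 12.1, were not well above background.

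Adhesion receptors covered a wide range. Of 24 integrin subunits, Itgb5 of the vitronectin receptor read 33700, Itgam of leukocytes 22500 with its further probes at 192 and 172, and Itga6 of laminin receptors 20600, while Itga2, Itga4 and Itga9 were among 7 not well above background. Of 23 cadherins, Cdh11, the cadherin of mesenchymal cells, read 31100 with another probe at 4380, Cdh2 (N-cadherin) read 19100 and Cdh13 15600, and 10 were not well above background. Among heparan sulphate proteoglycans, Gpc1 read 56100, Sdc2 31600 and Sdc4 23100. Tetraspanins had 9 of 27 in the brightest 10%, led by Cd63 at 309000, Cd81 at 187000 and Tspan3 at 95000.

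Of 54 receptor tyrosine kinases, 41 (75.9%, against 76.1% of all genes) were well above background and 6 (11.1%, against 10.1%) were in the brightest 10%, shares near those of all genes. Ephb3, an ephrin receptor, read 58900, Fgfr1 51500 with further probes at 10100 and 2960, and Axl, the Gas6 receptor, 32100. Epha5 read 28500 on one probe and 63.5 on the other. Kit, Erbb3 and Ret were not well above background. Tgfbr2 read 30800 with another probe at 597, Tgfbr3 21600, Acvr1 20300 with another at 4610, and Bmpr1a 11200. The Wnt receptors Fzd1 and Fzd2 read 50000 and 30800, with another Fzd2 probe at 1790.

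Receptors for small ligands were mostly dim. Of 22 chemokine receptors, Ackr3, a scavenger of Cxcl12, was alone above the olfactory limit at 6480, and Cxcr4, the signalling receptor for Cxcl12, read 6.05 and was not well above background. Of 35 receptors for lipid mediators, endothelin, angiotensin, thrombin and catecholamines, F2r (thrombin receptor) read 31300, Agtr2 13300 and Ednra 13000, and 10 were not well above background. Of 11 glucose transporters, Slc2a1, the basal transporter GLUT1, read 34900 and was the only member in the brightest 10%. Notch receptors and ligands had none there, with Jag1 at 11700 and Notch2 at 6240 and 81.

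Antigen-presenting genes were bright, and so were some caveolar genes. Of 7 caveolins and cavins, 5 passed the olfactory limit and 3 were in the brightest 10%, with a median of 12970. Cavin1, needed to form caveolae, read 163000 on one probe and 83.6 on the other, Cavin3 61700, Cavin2 43700 and Cav2 12970 ± 392 (SD over 10 spots), with further Cav2 probes at 2540 and 377. Cav3 of muscle was not well above background. Of 7 MHC class I genes, 6 were in the brightest 10%, with B2m at 238000 ± 8485 (SD over 2 spots), H2-K1 at 99670 ± 3900 (SD over 10 spots) and H2-D1 at 74700. Which heavy chain copy each probe reads was not tested.

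The listed transcription factor genes were well above background about as often as genes in general, and a smaller share of them was in the brightest 10%. Of 366 measured, 284 were well above background (77.6%, against 76.1% of all genes) and 224 passed the olfactory limit (61.2%, against 58.1%). In the brightest 10% were 28 (7.65%, against 10.1%) and in the brightest 1% were 2 (0.546%, against 1.01%). The median was 640.5, against 526.5 for all genes. Both of those 2, Elk1 and Yap1, need care: Elk1, a partner of SRF, read 339000 on one probe and 432 on the other, and Yap1, the Hippo pathway coactivator, read 200000 on its only probe. Atf4 and Atf5, named above, are in none of the factor lists, so the counts leave out these factors of the brightest 1%.

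Activators of adipogenesis mostly passed the olfactory limit before induction. Of 21, 20 were well above background (95.2%, against 76.1% of all genes) and 18 passed the limit (85.7%, against 58.1%). In the brightest 10% were 3 (14.3%, against 10.1%), and the median was 3310. The early factors were bright: Cebpd read 51500 at rank 871, Cebpb 36200 at rank 1243, and Nr3c1, the glucocorticoid receptor, 34700 with another probe at 1150. Klf4, an early activator of Cebpb, read 16500. The late factors were dimmer: Pparg read 4998 ± 182 (SD over 10 spots) at rank 5698, Cebpa 1720 at rank 8315 and Klf5 824. Of the commitment factors of preadipocytes, only Ebf1, at 6740, lay between the early and late factors named here. Zfp423, at 2470, 942 and 584 on its probes, and Ebf2, at 443, were dimmer than Pparg. Prdm16, the brown fat regulator, read 6.07 and was not well above background.

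Factors known to restrain adipogenesis had 13 of 14 members above the olfactory limit (92.9%, against 58.1% of all genes). In the brightest 10% was 1 (7.14%, against 10.1%), and the median was 5690. Klf3 read 25600, Ddit3 (CHOP), which blocks C/EBPβ, 20800, Irf3 13900 and Klf2 10800. Wwtr1 (TAZ), a coactivator that represses PPARγ, read 10000, and Gata3 and Gata2, which hold preadipocytes back, read 3200 and 2460. Irf4 was not well above background. The signals of these 14 factors lay within the range spanned by the activators. That range is wide, from Prdm16 at 6.07 to Cebpd at 51500, and most genes measured lie within it, so this does not show matching levels.

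Factors of mesenchyme and limb had 30 of 33 members above the olfactory limit (90.9%, against 58.1% of all genes) and a median of 4170. Prrx2 and Prrx1, homeodomain factors of limb mesenchyme, read 63800 and 39900, with another Prrx1 probe at 8770, and Snai2 read 30200. Twist2 and Twist1 read 14400 and 10100. Tcf21, a factor of white preadipocytes, and Meox1 were not well above background. Master factors of other lineages contrasted with these: 4 of 32 passed the olfactory limit (12.5%, against 58.1% of all genes). They were led by Trp63 of epithelium at 3770 and Nanog at 719, whose other probe was not well above background. Spi1 of myeloid cells, Gata1 of red cells, Sox2, Hnf4a, Pax6 and Neurod1 were not well above background.

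Hox genes record position along the body axis. Of 39 measured, 17 passed the olfactory limit and none was in the brightest 10%. Hoxa7 read 21400, just below that class, Hoxd8 7450 and Hoxb4 4260. Of groups 10 to 13 of the clusters, the posterior end, only Hoxc13, at 927 and named after its value was seen, passed the limit, and Hoxa10, Hoxc10, Hoxa11, Hoxc11, Hoxd11, Hoxc12, Hoxd12 and Hoxd13 were not well above background. Hoxc8, used as a marker of white preadipocytes, read 11.6 and was not well above background.

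Immediate early and signal-driven factors spanned the range. Mafg read 38700 with further probes at 6950 and 5860, Jund 30400, Egr1 27700, Jun 10700 and Fos 1066.5 ± 41.5 (SD over 10 spots). Klf6 was the brightest of the Klf family at 44000. Of the Tead and Srf list, Tead2 read 37900, Mrtfa, the actin-sensing coactivator of SRF, 28500 with another probe at 2580, Srf 8060 and Tead1 7370 with further probes at 322 and 178, and Myocd, the muscle coactivator of SRF, was not well above background. Among Smad proteins, Smad3 read 21800 on one probe and 141 on the other, and Smad4 read 19000. Myc read 4645 ± 205 (SD over 2 spots).

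Nuclear receptors had 28 of 49 above the olfactory limit (57.1%, against 58.1% of all genes). In the brightest 10% were 6 (12.2%, against 10.1%), so both shares were near those of all genes. The retinoic acid receptors Rarg and Rara read 46600 and 27400, with another Rara probe at 4210, and the orphan receptor Nr2f6 read 27500. Esr1 and Pgr, the oestrogen and progesterone receptors, were not well above background. Of the Irf and Stat list, Irf1 read 41800 on one probe and was not well above background on the other, Stat2 read 27200 and Irf9 25700. Foxl2 read 67500 and 343, and Sox5 read 53600 and 204, so the brightest forkhead and Sox genes each rest on 1 of 2 probes.

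**Figure D5:**
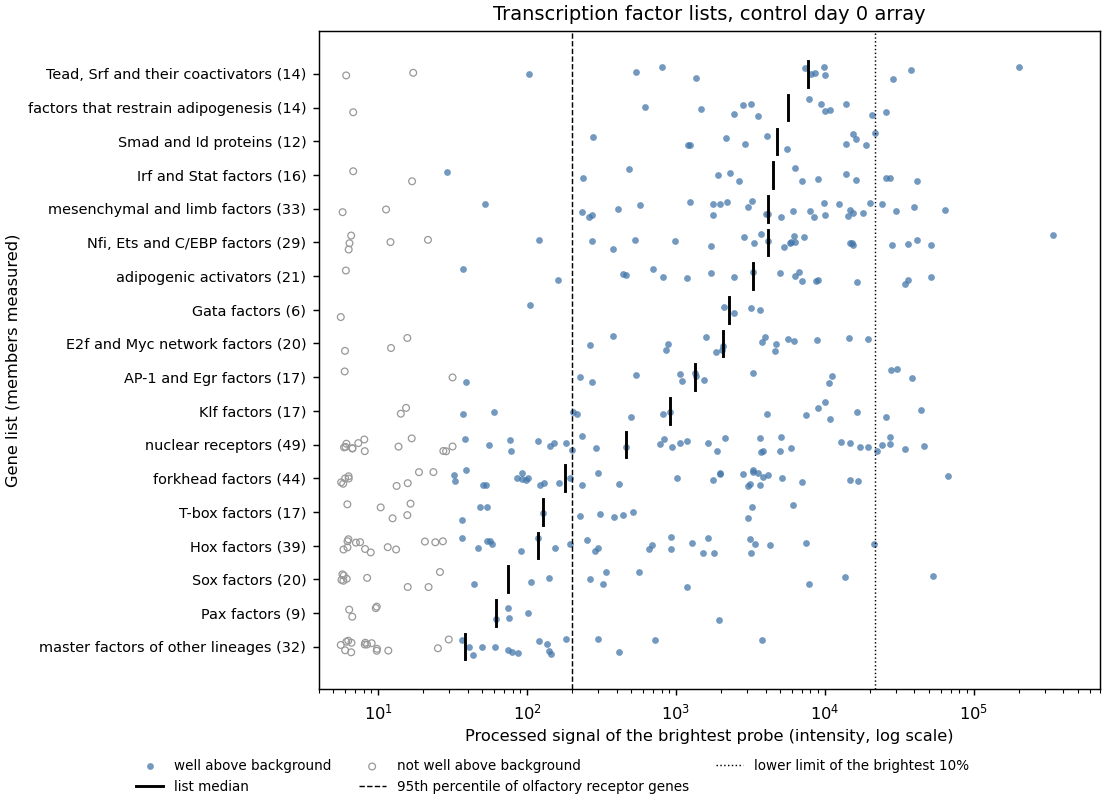
Processed signal of the brightest probe (x axis, intensity on a log scale) of each member of the transcription factor lists, ordered by list median (black bar), with the number measured in brackets; vertical scatter within a row has no meaning. Blue points are well above background and open points are not, the dashed line is the olfactory limit of 198.9 and the dotted line at 21800 begins the brightest 10%; few points lie right of the dotted line, and master factors of other lineages lie mostly left of the dashed line.

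Genes of metabolism and housekeeping completed the profile. Of 24 genes of the mature adipocyte, 11 passed the olfactory limit and 2 were in the brightest 10%: Lpl, lipoprotein lipase, at 87700 with another probe at 12300, and Agpat2, an enzyme of triglyceride synthesis, at 24800 with another at 2670. The fatty acid transporter Cd36 and the gluconeogenic enzyme Pck1 were not well above background. All 15 glycolytic genes passed the olfactory limit and 11 were in the brightest 10%, led by Gapdh, whose 7 probes ran from 37700 to 290000, and Aldoa at 226000. Among 15 chaperones of the secretory pathway 13 were in the brightest 10%, with Hspa5 (BiP) at 121000.

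Of 20 lysosomal genes all passed the olfactory limit and 15 were in the brightest 10%. Lamp1 read 283000, Ctsa (cathepsin A) 221000 with another probe at 2960, and Ctsl (cathepsin L) 196000. Lamp2, whose A form the study knocked down in other cultures, read 122000 and 31300 on its probes, and which splice form they read was not tested. Cell cycle genes had 23 of 24 above the olfactory limit and 6 in the brightest 10%. The G1 cyclins Ccnd3 and Ccnd1 read 78500 and 47700, the replication clamp Pcna 62500, the inhibitor locus Cdkn2a 107000 with another probe at 8540, and the proliferation marker Mki67 8640. All 18 interferon-stimulated genes passed the olfactory limit and 9 were in the brightest 10%, among them Isg15 at 145000 with another probe at 17400, Bst2 at 96000 and Oas1a, which has near-identical relatives, at 50300.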

How the data were processed

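Total RNA of control 3T3-L1 cells at day 0 was labelled with Cy3 and hybridised to 1 Agilent array of design 028005, and the image was quantified with Feature Extraction version 10.7.3.1 according to the header. The processed signal is a linear intensity that was background-subtracted and multiplicatively detrended, per the file headers, and was deposited with 3 significant digits. It was not normalised to another array. The file held 59305 non-control spots of 55681 probes, of which 260 spots marked as outliers were left out and 0 were saturated. RefSeq accessions named 27656 probes through a gene table of GRCm38.p6, and 28025 stayed unnamed, 378 of them at least as bright as the last gene of the brightest 1%. Spots of a probe were averaged and the brightest probe stood for a gene.

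Each of 75 gene lists is described by counts and a median beside those of all genes measured. The text names the 30 brightest genes, per list the 4 brightest and up to 3 genes not well above background, and a fixed set; cell type markers come from their own lists, and promoter genes were chosen after their values were seen. Members, lists and rules were chosen with earlier results of these data known. The use of the olfactory limit in the text, the 4-fold and 100-fold limits between probes and the signal classes of spot error were chosen after a first look, as were 2 of 3 promoter motifs (CArG box and CCAAT) and both TATAAA windows (250 bases on both strands, 50 on the gene's strand). The letters CCAAT were in 35.0% of all windows and 33.6% of cytoskeletal ones, and TATAAA within 50 bases in 3.05% of all windows. Protein sequences were not used here, and a few genes are not reported here. With 1 array there is no replicate, and the number of arrays limits the precision. Spot error comes from 315 of 399 probes printed 10 times. The tools were limma 3.58.1 under R 4.3.3 for normexp, and numpy 2.4.6, pandas 2.3.3 and matplotlib 3.10.9 under Python 3.11.15 for the rest. The ranking was tested on simulated data in which 200 genes were set brighter than any real spot. All 200 came out on top, which that setting made near certain. Differences in how well probes read their transcripts were not simulated, so the test does not bear on them. Other settings were tried for background, detrending, outliers, averaging, probe choice and filter.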

Additional observations from a re-analysis of the deposited data

How the results depend on the processing

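The probe that stands for a gene mattered most. With the median of all probes in place of the brightest, 18 of the 30 brightest genes stayed in the top 30, 178 of 211 in the brightest 1% and 1861 of 2108 in the brightest 10%. Without detrending 24 of 30 stayed, and with normexp background and an offset of 50, 25 of 30. Under the 8 settings tried, every other count over all genes or over the 4 classes stayed within 1.5 times its main value. Genes well above background numbered 18388 by the positive-and-significant mark and 12180 under the olfactory limit. Of 339 named ranks, 196 moved beyond 1 SD of spot error without detrending, 211 with normexp and 326 with the median of probes, by a median factor of 1.03, 1.03 and 1.24, and the cause was not tested. Of 150 counts over lists, 17 moved by more than 1.5 times under the olfactory limit, 11 with the median of probes and 5 or fewer under each other setting that kept a filter. Without a filter all genes count as present, and 14 moved. No paired analysis was possible because 1 array is described and no groups are compared. Signal near background limits what can be said of dim genes, and leaving out a replicate could not be run with 1 array.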
